A study of Mus musculus with 10 samples.

Results

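Branched-chain amino acid (BCAA) breakdown was followed through 10 genes in the interscapular brown fat (iBAT) of mice that lack RetSat in cells expressing Ucp1. The genes are *Bcat2*, *Bckdha*, *Bckdhb*, *Dbt*, *Dld*, *Bckdk*, *Ppm1k*, *Ivd*, *Mccc1* and *Mccc2*. They were chosen by symbol for their place in the pathway and not by their values, and they are 10 of the 55414 genes in the count files. All 10 passed the filter on low counts, as did 17690 genes in all. None of the 10 was called different between the genotypes by edgeR, against 0.164% of all genes tested. At so low a rate, this does not set the 10 apart from all genes. The 95% confidence interval of every difference stayed within -21.7% and 29.2% of the control level.

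Leucine, isoleucine and valine first lose their amino group to a branched-chain aminotransferase. The resulting keto acids are then irreversibly decarboxylated by the mitochondrial branched-chain keto acid dehydrogenase complex, which a dedicated kinase switches off by phosphorylation and a phosphatase switches on again. The carbon skeletons then take separate routes to acetyl-CoA, acetoacetate or succinyl-CoA. Brown fat is known as a tissue that takes up and oxidizes BCAA when it produces heat.

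Total RNA of iBAT came from male mice of strain C57BL/6J on normal chow, aged 12 to 14 weeks. All mice carried floxed alleles of RetSat (RetSat flox/flox). The 5 control mice had no Ucp1-Cre (Cre-) and the 5 knockout mice carried it (Cre+). Cre was driven constitutively by the promoter of *Ucp1*, so deletion concerns cells that express *Ucp1*, while other cells of the tissue keep the gene, and no group carried Cre without floxed alleles.

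The total count per library was 91903095 to 132499312 in Cre- and 96991071 to 110293494 in the Cre+ mice. Levels are CPM, counts scaled to a common library size after normalization for library composition. *Retsat*, the targeted gene, averaged 185 ± 42.3 CPM in Cre- and 23.9 ± 8.63 CPM in the Cre+ mice (SD, n = 5 each), for which edgeR gave a log2 fold change of -2.95 (SE 0.24) and an adjusted p of 0.00402. Summed over 9 markers of brown adipocytes, such as *Ucp1* and *Cidea*, the level was 7666 to 9690 CPM in Cre- and 7949 to 10690 CPM in the Cre+ mice. Log2 fold changes of the 9 differed in direction, from -0.40 to 0.52 (3 negative, 6 positive, median 0.18). Summed over 14 markers of skeletal muscle, a tissue that also breaks down BCAA, the level was 667 CPM in Cre- replicate 2 and 349 CPM in Cre+ replicate 4. It was 46.7 to 74.0 CPM in the other libraries. Of the 14 muscle markers, 12 passed the filter. The same libraries were highest in 8 immediate early genes, with 679 and 425 CPM against 74.2 to 308 CPM. In bulk tissue, fewer cells of a type and less RNA per cell cannot be told apart.

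Between Cre- and Cre+ mice, edgeR's quasi-likelihood test called 0 of the 10 genes at an adjusted p under 0.05, against 0.164% of all genes tested (0.13% fell and 0.0339% rose). At an unadjusted p under 0.05 it called 0, against 12.3% of all genes. DESeq2 also called 0 of the 10 (2.28% of all genes), and so did limma voom with sample quality weights (0.831% of all genes). In 0 of the 10 genes did the CPM ranges of the genotypes lie apart, which they did for 2.67% of all genes. On the log2 scale, 6 of the 10 differences of Cre+ from Cre- mice were positive and 4 negative, from -0.09 for *Ppm1k* to 0.15 for *Bcat2*. Their median was 0.08, and that of all genes tested 0.00. The lowest adjusted p among the 10 was 0.499, that of *Bckdk*. SE values were small, from 0.06 for *Bckdk* to 0.12 for *Ppm1k*, and single libraries held 2221 to 122818 counts per gene.

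**Figure D1:**
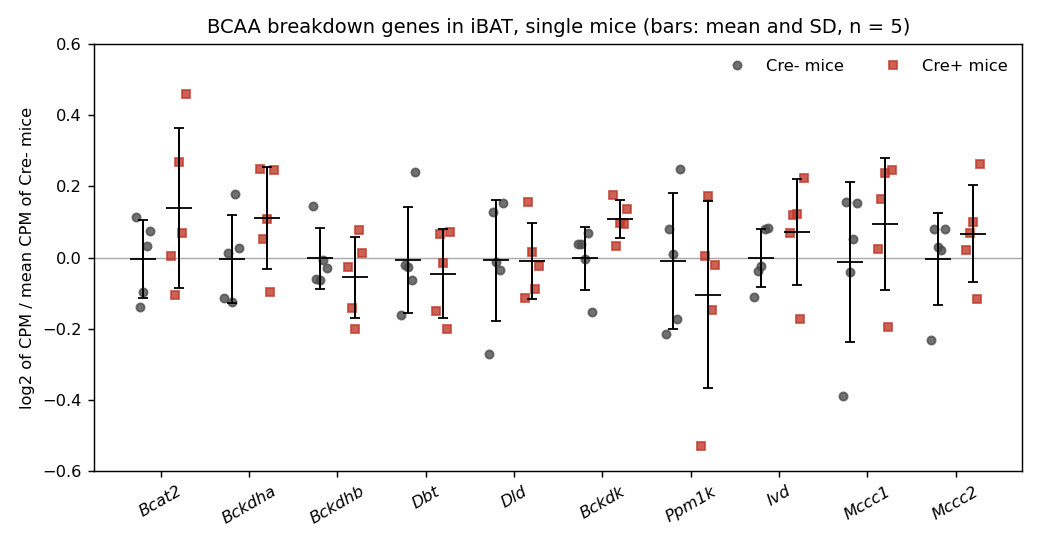
CPM of the 10 BCAA breakdown genes in single mice, drawn on a log2 scale relative to the Cre- average (circles, Cre- mice; squares, Cre+ mice; lines, mean with SD of 5 mice). For each of the 10 genes the ranges of the genotypes overlap, and the lowest point is that of *Ppm1k* in Cre+ replicate 1.

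The mitochondrial aminotransferase is encoded by *Bcat2* (ENSMUSG00000030826.20, chromosome 7 of GRCm39, 45219577 to 45239135). In Cre- replicates 1 to 5 its CPM were 108, 91.1, 93.8, 103 and 106, and in Cre+ replicates 1 to 5 they were 101, 93.2, 121, 105 and 138. Cre+ replicates 3 and 5 lay above all Cre- mice, while the other Cre+ mice lay within their range. *Bcat2* averaged 100.3 ± 7.53 CPM in Cre- and 112 ± 17.9 CPM in the Cre+ mice (SD, n = 5 each), and edgeR put the log2 fold change at 0.15 (SE 0.10, 95% confidence interval -0.06 to 0.37) with an adjusted p of 0.574. Without Cre+ replicate 5 the log2 fold change was 0.065. *Bcat1*, the cytosolic aminotransferase, was low, at 0.854 ± 0.356 CPM in Cre- and 1.03 ± 0.282 CPM in the Cre+ mice (SD, n = 5 each), and its log2 fold change of 0.26 had an adjusted p of 0.770 from edgeR.

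*Bckdha* and *Bckdhb* encode the alpha and beta subunits of the decarboxylase of the dehydrogenase complex. *Bckdha* (ENSMUSG00000060376.8, chromosome 7, 25329371 to 25358406) had 156, 170.3, 155, 191 and 172 CPM in Cre- and 200.5, 175, 182, 158 and 200.0 CPM in the Cre+ mice. Cre+ replicates 1 and 5 were above every Cre- mouse, and Cre+ replicate 4 was among the lowest. edgeR put its log2 fold change at 0.12 (SE 0.08) with an adjusted p of 0.602. *Bckdhb* (ENSMUSG00000032263.15, chromosome 9, 83807198 to 84006293) had 108, 93.5, 93.3, 97.0 and 95.5 CPM in Cre- mice. In Cre+ mice it had 95.5, 88.3, 84.8, 103 and 98.3 CPM. Cre- replicate 1 stood above the other Cre- mice, which lay close together. For *Bckdhb*, edgeR put the log2 fold change at -0.05 (SE 0.07) with an adjusted p of 0.802, and at -0.014 without Cre- replicate 1.

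*Dbt* encodes the transacylase core of the complex, and *Dld* the dihydrolipoamide dehydrogenase that reoxidizes its lipoyl groups. *Dbt* (ENSMUSG00000000340.11, chromosome 3, 116306719 to 116343630) had 144, 159, 159, 155 and 191 CPM in Cre- and 146, 169, 159.9, 141 and 169.8 CPM in the Cre+ mice. *Dld* (ENSMUSG00000020664.11, chromosome 12, 31381276 to 31401452) had 859, 1133, 1028, 1013 and 1152 CPM in Cre- and 959, 1156, 1048, 976 and 1021 CPM in the Cre+ mice. For both genes the Cre+ mice lay within or close to the spread of the Cre- mice. edgeR put the log2 fold change of *Dbt* at -0.04 (SE 0.08) and that of *Dld* at -0.01 (SE 0.09), with adjusted p of 0.876 and 0.985. DLD also serves the pyruvate, 2-oxoglutarate and 2-oxoadipate dehydrogenase complexes and the glycine cleavage system. Among 10 other subunits of those complexes, 0 passed in edgeR (0.164% of all genes), DESeq2 (2.28%) or limma voom (0.831%), and 0 had an unadjusted p under 0.05 in edgeR (12.3%). Their log2 fold changes ran from -0.17 for *Dhtkd1* (SE 0.12) to 0.10 for *Gldc* (SE 0.47) with a median of 0.02. *Gldc* was near the floor, at 0.169 CPM in Cre- and 0.182 CPM in the Cre+ mice, so its value is imprecise.

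The opposing regulators of the complex are the kinase *Bckdk* and the phosphatase *Ppm1k*. *Bckdk* (ENSMUSG00000030802.15, chromosome 7, 127503254 to 127509393) had 145, 145, 141, 148 and 127 CPM in Cre- mice. In Cre+ mice it had 159, 144, 151, 150.4 and 155 CPM, so that 4 of 5 Cre+ mice exceeded every Cre- mouse and Cre+ replicate 2 did not. The log2 fold change of *Bckdk* was 0.11 (SE 0.06, 95% confidence interval -0.02 to 0.24), with an unadjusted p of 0.102 and an adjusted p of 0.499 from edgeR. *Ppm1k* (ENSMUSG00000037826.6, chromosome 6, 57483487 to 57512453) had 24.9, 30.5, 29.0, 25.6 and 34.3 CPM in Cre- and 20.0, 28.9, 32.6, 26.1 and 28.4 CPM in the Cre+ mice. Cre+ replicate 1 was the lowest of the 10 libraries for *Ppm1k* and Cre- replicate 5 the highest. edgeR put its log2 fold change at -0.09 (SE 0.12, 95% confidence interval -0.35 to 0.18) with an adjusted p of 0.819, and at 0.0073 without Cre+ replicate 1. *Ppm1k* lies on the same chromosome as *Retsat*, at a distance of 15063005 bp.

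The leucine branch continues with *Ivd*, the isovaleryl-CoA dehydrogenase, and with *Mccc1* and *Mccc2*, the biotin-carrying and the other subunit of 3-methylcrotonyl-CoA carboxylase. *Ivd* (ENSMUSG00000027332.12, chromosome 2, 118692435 to 118713390) had 273, 287, 289.9, 311 and 312 CPM in Cre- and 309, 320.2, 321, 261 and 344 CPM in the Cre+ mice. *Mccc1* (ENSMUSG00000027709.10, chromosome 3, 36013461 to 36054827) had 148, 217, 189, 201 and 216 CPM in Cre- and 197, 218, 229, 169.6 and 230.2 CPM in the Cre+ mice. *Mccc2* (ENSMUSG00000021646.10, chromosome 13, 100085038 to 100152147) had 109, 134, 129.9, 129 and 134 CPM in Cre- and 129, 134, 137, 117 and 153 CPM in the Cre+ mice. The same libraries marked the ends for these genes, with Cre- replicate 1 and Cre+ replicate 4 lowest and Cre+ replicate 5 highest. Cre+ replicate 4 also held more muscle transcripts than the other Cre+ mice, while Cre- replicate 1 had 65.7 CPM of them, and their part in these levels was not tested. The log2 fold changes of *Ivd*, *Mccc1* and *Mccc2* were 0.08 (SE 0.08), 0.10 (SE 0.11) and 0.07 (SE 0.08), with adjusted p of 0.722, 0.744 and 0.760 from edgeR. Without Cre- replicate 1 the log2 fold changes were 0.051, 0.021 and 0.020, and without Cre+ replicate 5 they were 0.039, 0.067 and 0.021.

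Across the 10 libraries *Mccc1* and *Mccc2* moved together, with a Pearson r of 0.94 and a Spearman rho of 0.90 over log2 CPM. They still did so after the mean of each genotype was subtracted (r = 0.93), and r was 0.75 without the 2 libraries farthest from the median of *Mccc1*, Cre- replicate 1 and Cre+ replicate 4. Only 4 of 17689 other genes, *Mccc1* included, were as close to *Mccc2* (0.0226%). *Ivd* had an r of 0.85 with *Mccc2* (rho 0.79, and 0.71 without the same 2 libraries) and of 0.82 with *Mccc1* (rho 0.87, and 0.64 without them). Of all other genes, 0.599% were as close to *Mccc2* and 1.55% as close to *Mccc1* as *Ivd* was. These pairs of *Ivd*, *Mccc1* and *Mccc2* had the highest r of the 45 pairs of the 10 genes. They were named after their values were seen, so their low shares follow in part from that choice. Next in r came *Bckdha* with *Ivd* (0.79) and *Dld* with *Mccc1* (0.78). Over the 45 pairs of the 10 genes the median r was 0.22, and over pairs of the 10 genes with all genes tested it was -0.01. The quartiles of the latter were -0.32 and 0.30, so 0.22 lies between them. Subunits of the dehydrogenase complex gave a mixed picture. *Dbt* and *Dld* had an r of 0.77 (rho 0.81, and 0.78 without the 2 libraries farthest from the median of *Dbt*), whereas *Bckdhb* had an r of -0.69 with *Dld* (rho -0.77) and -0.44 with *Dbt* (rho -0.53), which were -0.66 and -0.42 without the 2 libraries farthest from the median of *Bckdhb*, Cre- replicate 1 and Cre+ replicate 3. *Bckdha* had an r of -0.29 with *Bckdhb* (rho -0.05) and 0.20 with *Dbt* (rho 0.28), which were -0.55 and 0.37 without the 2 libraries farthest from its own median, Cre+ replicates 1 and 5. The lowest r of the 45 pairs was that of *Bckdhb* with *Mccc1*, -0.78 (rho -0.53), and -0.49 without Cre- replicate 1 and Cre+ replicate 3. *Bckdk* and *Ppm1k* had an r of -0.65 (rho -0.48), which was 0.04 without Cre+ replicate 1 and Cre- replicate 5 and so rests on these libraries. All values of 1 library share its RNA, its depth and its scaling, so that genes of 1 library are not independent of each other.

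**Figure D2:**
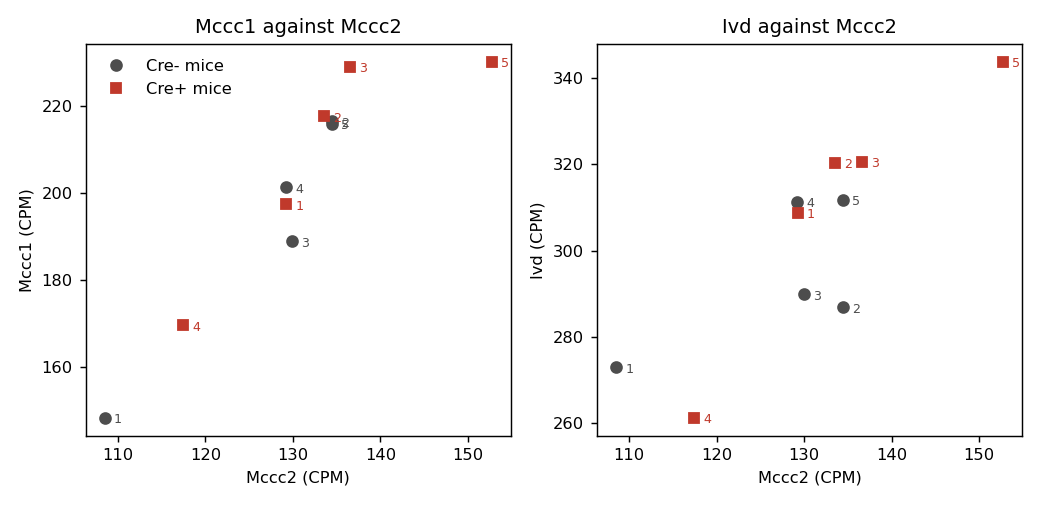
CPM of *Mccc1* (left) and *Ivd* (right) against CPM of *Mccc2* in single mice, with replicate numbers beside the points (circles, Cre- mice; squares, Cre+ mice). In both panels Cre- replicate 1 and Cre+ replicate 4 lie at the lower left and Cre+ replicate 5 at the upper right.

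Promoter sequences are shown for *Ivd*, *Mccc1* and *Mccc2* because their levels moved together across libraries. They are the 250 bases before the start of the gene from RefSeq, on build GRCm38.p6, which is older than the build of the counts, and are written 5′ to 3′ on the strand of the gene. Capitals mark CCAAT and, for *Mccc1*, GGGCGG as well, on either strand. On the opposite strand the former is written ATTGG and the latter is written CCGCCC. None of these windows held TATAAA or its reverse complement. *Ivd* lies at chr2:118861744-118861993 on the plus strand, *Mccc1* at chr3:36000679-36000928 and *Mccc2* at chr13:100015640-100015889, both on the minus strand.
Ivd: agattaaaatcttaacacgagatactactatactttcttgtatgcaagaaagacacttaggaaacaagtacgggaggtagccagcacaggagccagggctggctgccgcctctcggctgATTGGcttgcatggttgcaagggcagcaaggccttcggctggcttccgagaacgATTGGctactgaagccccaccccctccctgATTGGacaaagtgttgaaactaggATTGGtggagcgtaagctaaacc
Mccc1: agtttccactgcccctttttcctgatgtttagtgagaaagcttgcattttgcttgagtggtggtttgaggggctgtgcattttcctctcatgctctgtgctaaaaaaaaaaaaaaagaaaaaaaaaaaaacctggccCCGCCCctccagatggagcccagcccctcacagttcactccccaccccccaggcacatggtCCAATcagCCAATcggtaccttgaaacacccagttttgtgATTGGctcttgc
Mccc2: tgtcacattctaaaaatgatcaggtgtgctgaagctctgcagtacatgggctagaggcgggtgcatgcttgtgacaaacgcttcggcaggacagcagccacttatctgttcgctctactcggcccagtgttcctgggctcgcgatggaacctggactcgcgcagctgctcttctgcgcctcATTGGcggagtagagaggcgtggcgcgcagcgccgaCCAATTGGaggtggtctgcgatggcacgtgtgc
CCAAT occurred 4 times in the window of *Ivd* and 3 times each in those of *Mccc1* and *Mccc2*, where in *Mccc2* a pair on opposite strands overlaps in CCAATTGG. RefSeq held 11 windows for 9 of the 10 genes, with a pair each for *Bcat2* and *Bckdhb*. CCAAT was in 7 of these 11 windows, against 33.8% of all 32851 promoter windows, and each of the 7 belonged to another gene. *Bcat2* and *Bckdha* had none. GGGCGG was in 3 of the 11 windows, those of *Bckdhb*, *Mccc1* and *Ppm1k* (32.7% of all windows), and TATAAA in 1 of the 11, that of *Bckdk* (12.4% of all windows). AAGGTCA, the core of sites for estrogen-related receptors, was in 0 of the 11 windows, and in 4.08% of all windows. A match describes these letters in this window and shows no binding.

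Per length, the 10 genes spanned a 58.7-fold range in Cre- mice, from 282 ± 31.9 CPM per kb (SD, n = 5) of *Dld* to 4.79 ± 0.640 CPM per kb (SD, n = 5) of *Ppm1k*. The length is that of all annotated exons of a gene, so genes with long alternative exons, such as *Mccc1* with 10952 bp, come out lower on this scale. *Bckdha* followed *Dld* with 88.9 ± 7.74 CPM per kb, and then came *Bckdhb* with 54.0 ± 3.32, *Ivd* with 53.5 ± 3.04, *Dbt* with 48.2 ± 5.21, *Mccc2* with 45.4 ± 3.85 and *Bckdk* with 38.1 ± 2.25 CPM per kb in Cre- mice (SD, n = 5). *Bcat2* and *Mccc1* had 25.7 ± 1.93 and 17.7 ± 2.57 CPM per kb. The levels of neighbours from *Bckdhb* down to *Bckdk* overlapped in Cre- mice, while *Dld*, *Bckdha*, *Bcat2*, *Mccc1* and *Ppm1k* were each apart from both neighbours in order. The order in Cre+ mice was the same except that *Ivd* stood before *Bckdhb* and *Mccc2* before *Dbt*, which are pairs with overlapping ranges. *Dld* was above 99.2% of all genes tested on this scale and *Ppm1k* above 68.7%, with the other 8 genes above 89.7% to 97.8%.

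**Figure D3:**
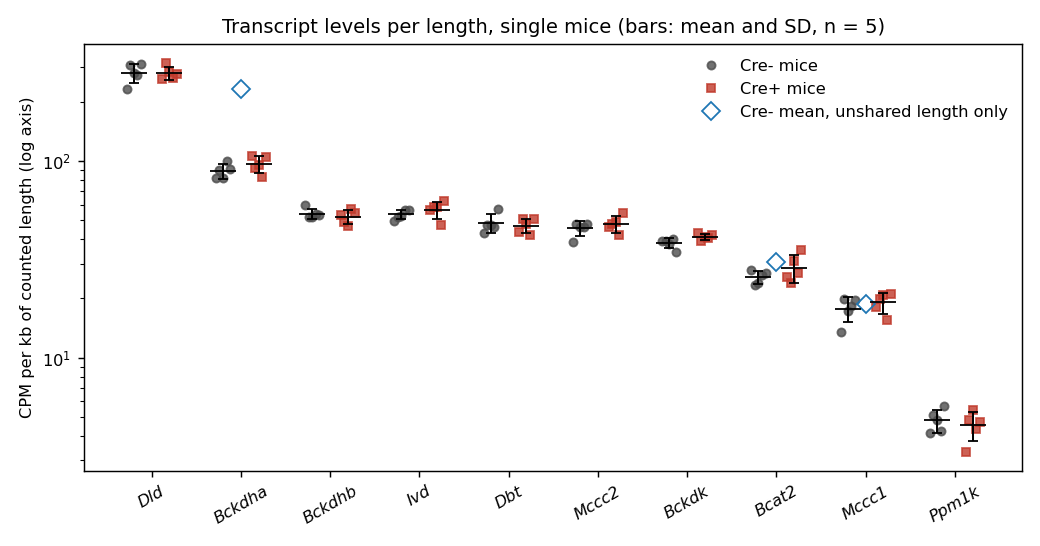
CPM per kb of counted length of the 10 genes in single mice on a log axis (circles, Cre- mice; squares, Cre+ mice; bars, mean and SD, n = 5). Open diamonds give the mean of Cre- mice over exon bases not shared with other genes, which lifts *Bckdha* from 88.9 to 232 CPM per kb.

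The level of *Bckdha* is uncertain, since 1171 of its 1899 counted bases (61.7%) also belong to exons of *B3gnt8* on the opposite strand. Strand was not used in counting, and reads that lay wholly in such bases overlapped both genes equally and could be assigned to neither. *B3gnt8* averaged 6.55 ± 0.792 CPM in Cre- and 7.40 ± 0.970 CPM in the Cre+ mice (SD, n = 5 each). Over the 728 bases that are not shared, *Bckdha* would have 232 ± 20.2 CPM per kb in Cre- and 251 ± 24.7 CPM per kb in the Cre+ mice (SD, n = 5). *Bcat2* shared 15.9% of its length with *0610005C13Rik* and *Mccc1* 5.60% with 3 genes, among them *Mccc1os*, and all of these had at most 1.22 CPM on average in either genotype. The other 7 genes shared no exon bases.

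Ratios between genes of 1 library do not depend on its scaling. *Bckdk* was 8.0-fold above *Ppm1k* per length in Cre- and 9.21-fold in the Cre+ mice, which are log2 ratios of 3.00 ± 0.27 and 3.20 ± 0.30 (SD, n = 5). The log2 ratio of *Bckdk* to *Ppm1k* was 3.25, 2.95, 2.98, 3.23 and 2.59 in Cre- and 3.70, 3.02, 2.92, 3.23 and 3.15 in the Cre+ mice. Only Cre+ replicate 1 lay outside the range of the Cre- mice. *Bckdha* was above *Bckdhb* by 0.72 ± 0.17 in Cre- and 0.89 ± 0.20 in the Cre+ mice on the log2 scale per length, with 4 of 5 Cre+ mice at or above the highest Cre- mouse (0.91 to 1.03 against 0.90) and Cre+ replicate 4 at 0.55. *Dbt* stood to *Bckdha* at -0.88 ± 0.17 and -1.04 ± 0.15, and *Mccc1* to *Mccc2* at -1.37 ± 0.10 and -1.33 ± 0.09, in Cre- and Cre+ mice. Without length, *Mccc1* was above *Mccc2*, at 194 against 127 CPM in Cre- and 209 against 134 CPM in the Cre+ mice. The sign of this log2 ratio thus depends on the counted lengths, 10952 and 2802 bp. *Bckdk* and *Ppm1k* averaged 141 and 28.9 CPM in Cre- mice, so the size of their ratio depends on length too. Ratios with *Bckdha* use its whole counted length, shared bases included, so their size is uncertain. Over unshared bases *Bckdha* would have 232 CPM per kb in Cre- mice, against 54.0 for *Bckdhb* and 48.2 for *Dbt*. For each of these 4 ratios the ranges of the genotypes overlapped, and no test was made.

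**Figure D4:**
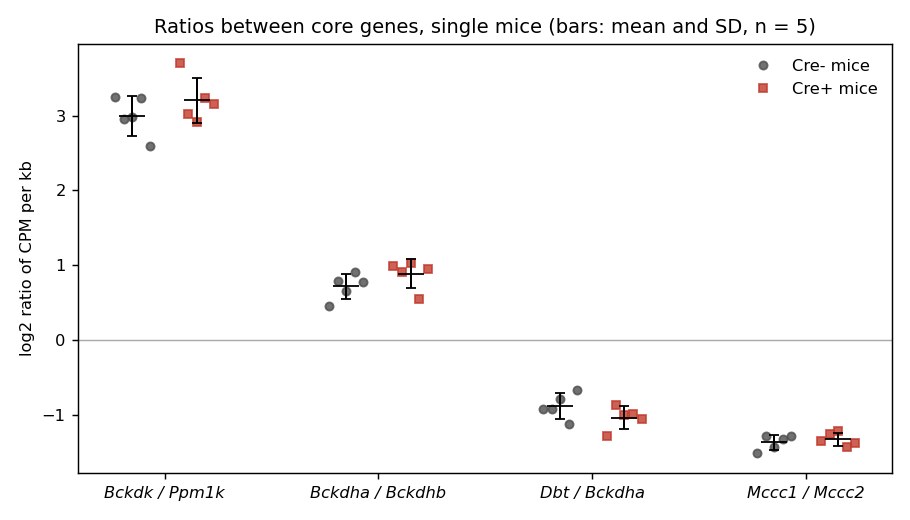
Log2 ratios of CPM per kb between pairs of the 10 genes in single mice (circles, Cre- mice; squares, Cre+ mice; bars, mean and SD, n = 5). The ranges of the genotypes overlap for all 4 ratios, and *Bckdk* to *Ppm1k* is highest in Cre+ replicate 1. Ratios with *Bckdha* use its whole counted length, of which 61.7% is shared with *B3gnt8*. The size of each ratio depends on the counted lengths, and so does the sign of *Mccc1* to *Mccc2*.

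Among 29 further genes of BCAA uptake and breakdown, 0 passed in edgeR, DESeq2 or limma voom, against 0.164%, 2.28% and 0.831% of all genes. Without adjustment, edgeR gave a p under 0.05 to 1 of the 29, which was lower in Cre+ mice, against 12.3% of all genes. Their median log2 fold change was 0.00. This gene was *Oxct1*, which activates acetoacetate, an end product of leucine, to its CoA ester. *Oxct1* had 289, 313, 287, 304 and 359 CPM in Cre- and 225, 279.7, 266, 238 and 290.1 CPM in the Cre+ mice. Cre+ replicate 5 reached into the range of the Cre- mice and the other Cre+ mice lay below it. edgeR put its log2 fold change at -0.26 (SE 0.09, 95% confidence interval -0.44 to -0.07), with an unadjusted p of 0.0110 and an adjusted p of 0.257. *Auh*, the hydratase that follows the carboxylase in leucine breakdown, had a log2 fold change of 0.01 (SE 0.07).

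The valine and isoleucine branches were close to 0 as well. *Hibadh*, the 3-hydroxyisobutyrate dehydrogenase of valine breakdown, had 417, 424, 419, 428 and 419 CPM in Cre- and 383, 402, 395, 395 and 406 CPM in the Cre+ mice. Every Cre+ mouse was below every Cre- mouse, which *Hibadh* alone of the 29 genes showed, against 2.67% of all genes. The difference was small, at -0.09 on the log2 scale (SE 0.05), with an unadjusted p of 0.112 and an adjusted p of 0.517 from edgeR. *Hibch*, the preceding hydrolase, had -0.10 (SE 0.07), *Hsd17b10* of isoleucine breakdown -0.10 (SE 0.08) and *Echs1*, the enoyl-CoA hydratase of both branches, -0.05 (SE 0.06). Of the valine steps 4 of 5 log2 fold changes were negative and of the isoleucine steps 4 of 4, against 8785 of 17690 genes tested. Their medians were -0.07 and -0.05. In the steps from propionyl-CoA to succinyl-CoA, *Pcca*, a subunit of propionyl-CoA carboxylase, had -0.06 (SE 0.09). *Mmaa*, which serves the cobalamin-dependent mutase, had -0.08 (SE 0.08). Of the 6 genes of these last steps 3 were negative and 3 positive, with a median of 0.0074.

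*Slc25a44*, the mitochondrial carrier of BCAA in brown fat, had 139, 135, 127, 132 and 128 CPM in Cre- and 138, 133, 128, 166 and 131 CPM in the Cre+ mice. edgeR put the log2 fold change at 0.07 (SE 0.08) with an adjusted p of 0.734. Cre+ replicate 4, the Cre+ library with the most muscle transcripts, was highest, and the other Cre+ mice lay within the range of the Cre- mice. Cre- replicate 2, with the highest level of muscle markers of the 10 libraries, had 135 CPM of *Slc25a44*, within the range of the other Cre- mice. The part of muscle transcripts in these levels was not tested. Without Cre+ replicate 4 the log2 fold change was 0.00084. The plasma membrane transporter genes *Slc7a5* and *Slc7a8* were low, with 0.414 ± 0.124 and 2.93 ± 1.20 CPM (SD, n = 5) in Cre- mice, and their log2 fold changes of -0.56 (SE 0.29) and -0.33 (SE 0.27) had wide intervals, -1.19 to 0.08 and -0.93 to 0.26. *Klf15*, a transcription factor known to induce BCAA breakdown, had 0.13 (SE 0.11). All 5 genes that make or attach lipoic acid, or attach or recycle biotin, had positive log2 fold changes, as had 8905 of 17690 genes tested. Those of the 5 ran from 0.0034 for *Lias* (SE 0.06) to 0.16 for *Btd* (SE 0.10), with 0.16 (SE 0.11) for *Lipt2*. edgeR, DESeq2 and limma voom called 0 of the 5, against 0.164%, 2.28% and 0.831% of all genes. At these rates, 0 of 5 does not set these genes apart.

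**Figure D5:**
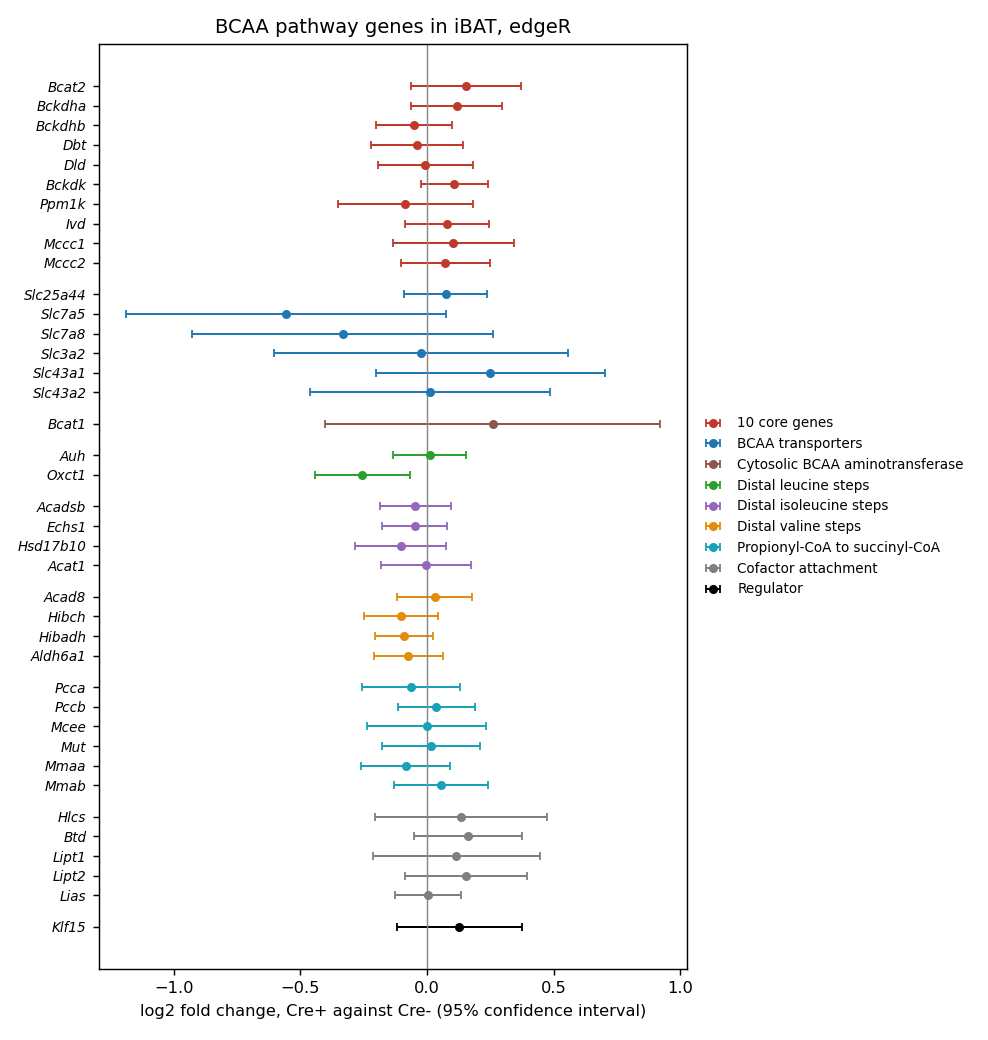
Differences of Cre+ from Cre- mice on the log2 scale, from edgeR, with 95% confidence intervals, for the 10 genes and 29 further genes of BCAA uptake and breakdown grouped by step. All intervals but that of *Oxct1* include 0, and the widest are those of *Bcat1* and of 5 transporter genes, not of *Slc25a44*.

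The mean log2 CPM over the 10 genes was 7.27 ± 0.08 in Cre- and 7.32 ± 0.09 in the Cre+ mice (SD, n = 5 each), with 7.16 to 7.37 and 7.20 to 7.44 in single mice. It was lowest in Cre- replicate 1 and highest in Cre+ replicate 5, which held the highest value of 4 of the 10 genes. Together the 10 genes gave 2351 ± 178 CPM in Cre- and 2410.3 ± 144 CPM in the Cre+ mice (SD, n = 5 each). Among the genes whose log2 CPM followed this mean most closely over the 10 libraries, of 12301 genes, were *Nhej1* (r = 0.97), *Krt10* (r = 0.96), *Thg1l* (r = 0.95) and *Gabpa*, a transcription factor of mitochondrial genes (r = 0.95). Their Spearman rho were 0.94 to 0.99, and their log2 fold changes between the genotypes 0.07 to 0.25. They were picked for the highest r of 12301 genes over 10 libraries, so a high r follows from that choice. *Krt10* was low, at 1.82 CPM in Cre- and 2.09 CPM in the Cre+ mice. Whether any of them regulates the 10 genes was not tested.

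When the pair of libraries rich in muscle transcripts was left out, edgeR again called 0 of the 10 genes and 0 of the 29 further genes. It then called 289 of 17821 genes tested. At that rate, 0 of the 10 and 0 of the 29 do not set these genes apart from all genes.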

How the data were processed

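RNA of iBAT was poly(A)-selected and sequenced in pairs by the study. According to the submitters' processing notes and the file headers, the authors used Trimmomatic for trimming, STAR for alignment to GRCm39 and, for counting, featureCounts 2.0.1 on GENCODE M28, with mates counted singly, strand ignored and reads with several alignments left out. For STAR and Trimmomatic no version was found in these sources. Per gene, the authors deposited raw counts (55414 genes), and 94.0% matched a symbol.

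Groups were taken from the sample titles. Libraries were taken as separate mice, as the study states, which the labels do not say of each sample. The genotypes were compared in edgeR 4.0.16 (R 4.3.3) with TMM, filterByExpr (minimum count 10, minimum total 15), robust quasi-likelihood F tests and Benjamini-Hochberg adjustment over 17690 genes, with calls at 0.05. SE is the log2 fold change divided by the square root of F. Log2 CPM have a prior count of 2. Alternatives were DESeq2 1.42.0, limma 3.58.1 voom, other scalings and filters, a replicate block and left-out libraries. Tests were checked on simulated counts. Correlations are descriptions and have no p. The 10 genes, the lists and the naming rule (the 10 genes, *Retsat*, up to 2 genes per step with the smallest p, *Bcat1*, *Slc25a44*, *Klf15* and 5 genes most like the mean of the 10) were chosen with earlier results of these data known. *Lias*, *Dhtkd1*, *Gldc* and the genes sharing exons were named after their values were seen, and so were the gene pairs whose correlation is given. *Mut* is named Mmut in newer lists. A gene of the wider list and a gene like the mean of the 10 are not reported here, and the former was left out of the list's counts. The study used DESeq2. Libraries held 91903095 to 132499312 counts, so that counting error of the 10 genes is small beside the spread between mice. Sequences of proteins were not used here.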

Additional observations from a re-analysis of the deposited data

Results flagged for a closer look

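In each genotype, the 10 genes, 15 further pathway genes and *Retsat* were checked for a library whose gap to the nearest other library was large against the range of its group. Chance alone gives about 1 in 20 such groups, and 5 of 52 groups were found. In Cre- replicate 1, *Bckdhb* had 108 CPM against 93.3 to 97.0 CPM in the other Cre- mice, and *Mccc2* had 109 CPM against 129 to 134 CPM. *Hsd17b10* had 191 CPM in Cre+ replicate 5 against 140.3 to 151 CPM in the other Cre+ mice. *Slc25a44* had 166 CPM in Cre+ replicate 4 against 128 to 138 CPM in the other Cre+ mice. *Retsat* had 39.0 CPM in Cre+ replicate 3 against 18.0 to 23.0 CPM in the other Cre+ mice.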

How the results depend on the processing

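Under each of the 19 alternatives, among them DESeq2, limma voom and each library left out, 0 of the 10 genes and 0 of the 29 further genes were called. Calls were rare over all genes as well, as given below, so these zeros do not set the pathway apart. Of 190 fold changes of the 10 genes under these alternatives, 180 kept their sign and 10 changed it. Without the 3 Cre+ libraries whose identifier ends in an extra letter, log2 fold changes were 0.021 for *Dbt*, 0.083 for *Dld*, 0.087 for *Ppm1k*, -0.11 for *Auh* and -0.025 for *Slc25a44*. Without Cre- replicate 2 and Cre+ replicate 4, that of *Dld* was 0.046 and that of *Auh* -0.014. With 1 library left out they ranged from -0.079 to 0.026 for *Dbt*, from -0.068 to 0.034 for *Dld*, from -0.022 to 0.040 for *Auh*, from 0.065 to 0.21 for *Bcat2*, from -0.087 to -0.014 for *Bckdhb*, from 0.039 to 0.13 for *Ivd*, from 0.021 to 0.17 for *Mccc1*, from 0.020 to 0.12 for *Mccc2* and from -0.16 to 0.0073 for *Ppm1k*. Over all genes, edgeR called 29, DESeq2 393 and limma voom 147. edgeR called 92 without a filter on low counts, 289 without Cre- replicate 2 and Cre+ replicate 4, and 9 (without Cre+ replicate 1) to 331 (without Cre+ replicate 4) with 1 library left out. Other counts that moved by over 1.5 times were 13, 15, 12 and 11 without Cre- replicate 1, 3, 4 or 5 and 10 without Cre+ replicate 5. The cause was not tested. The fold between the highest and lowest of the 10 genes was 58.7 per length and 35.9 in CPM without length. With lengths not shared with other genes, a choice made after seeing the data, it was again 58.7. *Dld* and *Ppm1k*, the highest and lowest, share no exon bases, so the fold between them could not change. Same-numbered libraries of the genotypes did not deviate together in every pair (correlations of -0.20 to 0.22), and 2 of 5 Cre- libraries were closest to their own number. So few weak correlations cannot show whether the numbers pair mice, and the labels do not say. With the replicate block, edgeR called 23 genes in all and 0 of the 10.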
